A study of Mus musculus with 16 samples.

Results

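The stress hormone genes Fgf21 and Gdf15, the FGF21 co-receptor gene Klb and the FGF receptor genes Fgfr1, Fgfr2, Fgfr3 and Fgfr4 were followed across the hearts of 4 mouse genotypes. These 7 genes were taken from a table of 36499 genes by their symbols. Stranded mRNA libraries were sequenced from cardiac tissue of mice on normal chow, with 4 libraries from mice lacking both Clpp and Fgf21 (double KO), 4 from Clpp KO, 4 from Fgf21 KO and 4 from wild type. In Clpp KO, floxed Clpp (Clpp fl/fl) was deleted in the whole body by Cre recombinase from the β-actin promoter and heterozygous mice were intercrossed; the double KO came from Clpp fl/fl Fgf21 fl/fl mice with the same Cre. How the Fgf21 KO was made and the age of the mice are not given in the sources used here. Whether each library is a different mouse is also not stated, and the tests therefore speak of the scatter among libraries, which may be technical.

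CLPP is the proteolytic subunit of a protease of the mitochondrial matrix. FGF21 is a circulating hormone of the FGF family that signals through an FGF receptor, mainly FGFR1 in adipose tissue, together with β-Klotho, the product of Klb. GDF15 is a distant member of the TGF-β family whose receptor, GFRAL, is restricted to the hindbrain. Both hormones are known to be induced in tissues with mitochondrial defects, as part of the integrated stress response, in which ATF4 raises genes of amino acid synthesis and transport. The series asks how FGF21 bears on that response in the heart when mitochondrial function is mildly impaired.

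Totals lay between 36260545 and 51820727 counts per library. Libraries labelled as lacking CLPP held 267 to 355 Clpp counts, and the others 1435 to 2636. Mitochondrially encoded mRNAs made up 56.1% to 60.8% of counts in double KO and Clpp KO and 25.5% to 39.4% in Fgf21 KO and wild type. Levels are therefore given as CPM scaled by TMM, which is counts relative to the library total, corrected by the trimmed mean of M-values, unless stated otherwise. The 8 cardiomyocyte markers summed to 21934 to 47446 CPM, and lung epithelium markers to at most 0.804 CPM. Wild-type replicates 2 and 4 stood apart from replicates 1 and 3. The atrial light chain gene Myl7 was at 1729 and 1338 CPM in them, against 1.21 and 1.16 CPM in replicates 1 and 3, and the 9 fibroblast markers summed to 3469 and 2282 CPM, against 1303 and 1302 CPM. Wild-type replicates 1 and 3 were in turn far more alike than any other pair of one group. Their mean chi-square per gene was 5.68, against 23.3 to 408 for the other pairs, where counting error alone gives a mean of 1. Their median was 0.857, against 1.62 to 38.3, and that value of 1 does not apply to a median. Replicates 1 and 3 were kept as 2 libraries. Where they count as 1, an exact permutation test compares 3 against 4 libraries and has fewer possible splits. By library totals alone, genes of the Y chromosome summed to 4.19 CPM in wild-type replicate 2 and to 47.5 to 81.7 CPM in the other 15 libraries. In bulk tissue, fewer cells of a type and less RNA per cell cannot be told apart.

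The 250 bases before the start sites of Fgf21, Gdf15 and Chac1, a stress response gene whose levels followed Gdf15 most closely, are shown because these genes stood higher in Clpp KO hearts. They come from RefSeq on GRCm38.p6, 5′ to 3′ on the strand of the gene, at chr7:45615491-45615740 (minus strand), chr8:70632457-70632706 (minus strand) and chr2:119350992-119351241 (plus strand). Capitals mark a match on either strand to TGATGNAA, the core of the element that ATF4 binds together with C/EBP proteins.
Fgf21: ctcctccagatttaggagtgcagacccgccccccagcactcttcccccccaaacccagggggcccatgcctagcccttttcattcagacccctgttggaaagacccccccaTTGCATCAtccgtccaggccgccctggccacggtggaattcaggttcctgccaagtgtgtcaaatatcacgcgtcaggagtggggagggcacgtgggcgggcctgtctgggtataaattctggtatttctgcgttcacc
Gdf15: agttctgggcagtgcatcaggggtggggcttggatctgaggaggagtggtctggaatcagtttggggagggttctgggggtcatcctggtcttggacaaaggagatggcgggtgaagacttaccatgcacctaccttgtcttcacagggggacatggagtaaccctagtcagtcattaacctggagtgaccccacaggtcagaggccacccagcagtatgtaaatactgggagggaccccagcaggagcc
Chac1: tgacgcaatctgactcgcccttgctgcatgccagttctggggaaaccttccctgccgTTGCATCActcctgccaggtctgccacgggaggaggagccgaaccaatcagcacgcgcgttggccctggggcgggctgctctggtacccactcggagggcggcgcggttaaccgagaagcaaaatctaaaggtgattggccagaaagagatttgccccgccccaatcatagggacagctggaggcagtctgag
The match in Fgf21 begins at position -139 from the start site and that in Chac1 at position -193, and both read TTGCATCA, the motif on the opposite strand. Of 32851 promoters in the RefSeq table, 3.97% held a match between 250 bases before and 50 after the start, and 4.51% of the 27025 genes in it had such a promoter. So did 6 of the 12 stress response targets found there. Of the 7 genes studied, 6 were found and Fgf21 alone held a match; the second Gdf15 entry held none. A match is a run of letters and not a shown binding site, and its absence from a window says nothing of the factor.

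**Figure D1:**
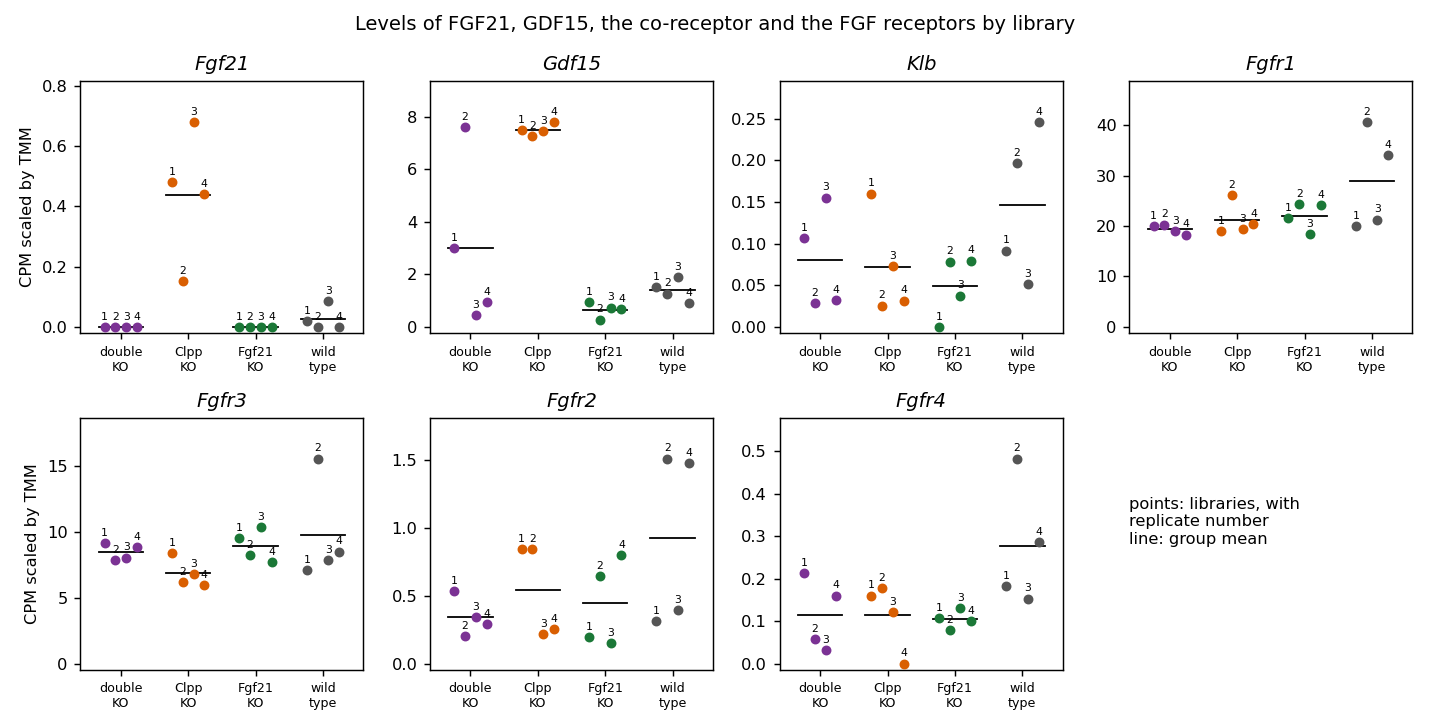
Levels of the 7 genes by library in CPM scaled by TMM, with a vertical scale of its own for each gene; points are libraries with their replicate number and lines are group means. Fgf21 lies above 0.15 CPM in the 4 Clpp KO libraries alone, Gdf15 is near 7.5 CPM in Clpp KO and spread from 0.434 to 7.61 CPM in double KO, and the highest Fgfr1, Fgfr2, Fgfr4 and Klb values are in wild-type replicates 2 and 4.

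Fgf21 (ENSMUSG00000030827, chromosome 7, 45613886 to 45615490 on the minus strand of GRCm38) was detected in every Clpp KO library, at low counts. Clpp KO replicates held 21, 6, 28 and 14 counts, against 1, 0, 5 and 0 in wild type. All 4 Clpp KO libraries lay above all wild-type libraries, at 0.480, 0.153, 0.680 and 0.440 CPM, as did 7.75% of the genes that passed the count filter of the model across all genes, which Fgf21 did not pass. All 8 double KO and Fgf21 KO libraries had 0 counts, as their labels say, which is a check and no finding; a floor of 3 counts over the group allows up to 0.0221 CPM in double KO and 0.0142 CPM in Fgf21 KO. Scaled by library totals alone, Fgf21 was at 0.356 ± 0.170 CPM in Clpp KO and 0.0312 ± 0.0489 CPM in wild type (SD, n = 4 each). The two-sided exact permutation p was 0.0286, which 4 against 4 libraries cannot go below, and 0.0714 when adjusted over 5 comparisons. The ratio of pooled counts was 10.1 (95% interval 4.43 to 28.6, counting error only), and 16.8 with totals scaled by TMM. In a fit without that filter it had a log2 fold change of 3.93 in Clpp KO against wild type (edgeR adjusted p = 0.0606). With wild-type replicates 1 and 3 summed, edgeR called it in that comparison. It then passed the filter only through Clpp KO libraries, where it is high, so that call is no further support.

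Gdf15 (ENSMUSG00000038508, chromosome 8, 70629393 to 70632456, minus strand) stood at similar levels in the Clpp KO libraries and at very different levels in the double KO libraries. It was at 2.99, 7.61, 0.434 and 0.930 CPM in double KO and at 7.47, 7.24, 7.46 and 7.79 CPM in Clpp KO. Double KO replicate 2 reached the Clpp KO range, and replicates 1, 3 and 4 lay below it. Fgf21 KO had 0.942, 0.274, 0.733 and 0.677 CPM and wild type 1.52, 1.27, 1.89 and 0.901 CPM. None of the Clpp KO libraries overlapped with wild type, and Fgf21 KO replicate 1 alone lay inside the wild-type range. The coefficient of variation was 109% in double KO, 3.01% in Clpp KO, 42.5% in Fgf21 KO and 29.9% in wild type.

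A single edgeR quasi-likelihood model over the 16 libraries tested 15255 genes, among them Gdf15, Fgfr1, Fgfr2 and Fgfr3. A gene is called where its Benjamini-Hochberg adjusted p over all of them is under 0.05. In Clpp KO against wild type 0 of the 4 tested genes were called, where 1.63% of all genes were; Gdf15, Fgfr1 and Fgfr3 had an unadjusted edgeR p under 0.05, as had 21.3% of all genes. DESeq2 and limma voom each called Gdf15, and they called 5.51% and 18.5% of all genes. By edgeR, Gdf15 came nearest, with a log2 fold change of 2.42 ± 0.61 (SE; 5.35-fold, 95% interval 2.17 to 13.2; edgeR adjusted p = 0.0636). Every Clpp KO library was above every wild-type library for Gdf15, as for that 7.75% of all genes tested. The call depends on the fit, since Gdf15 was called in 9 of 27 alternatives, with log2 fold changes of 1.69 to 2.60 and adjusted p from 0.000384 to 0.349. DESeq2 gave an adjusted p of 0.00142, limma voom 0.000384 and edgeR on the Clpp KO and wild-type libraries alone 0.00138. With edgeR, leaving out double KO replicate 2, 3 or 4 gave adjusted p of 0.0115, 0.0188 and 0.0466, leaving out wild-type replicate 3 gave 0.0467, and leaving out wild-type replicates 2 and 4 gave 0.349.

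Double KO libraries had 2.99 ± 3.27 CPM of Gdf15 and Clpp KO libraries 7.49 ± 0.225 CPM (SD, n = 4 each), a log2 fold change of −1.32 ± 0.59 (edgeR adjusted p = 0.994). In this comparison 0 of the 4 tested genes were called, where 0.059% of all genes were; Gdf15 alone had an unadjusted edgeR p under 0.05, as had 3.55% of all genes. The size of the Gdf15 fold change depended on single libraries, most of all on double KO replicate 2. It was −2.35 without that replicate, −0.96 without replicate 3, −1.02 without replicate 4 and −1.32 without replicate 1. Against Fgf21 KO, at 0.657 ± 0.279 CPM, the double KO had a log2 fold change of 2.18 ± 0.64 (edgeR adjusted p = 0.237; DESeq2 adjusted p = 0.0140). Without double KO replicate 3 that value was 2.54 (edgeR adjusted p = 0.0294), and without replicate 2 it was 1.15 and not called. Here too 0 of the 4 tested genes were called, where 0.892% of all genes were.

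Against wild type, at 1.39 ± 0.416 CPM, Gdf15 in double KO had a log2 fold change of 1.10 ± 0.60 (edgeR adjusted p = 0.279), which was 0.07 without double KO replicate 2. In Fgf21 KO against wild type it had −1.08 ± 0.63 (edgeR adjusted p = 0.567). Of the 4 tested genes 0 were called in either comparison, where 1.53% of all genes were called in double KO against wild type and 0.0459% in Fgf21 KO against wild type. The interaction asks whether the effect of losing Fgf21 differs between hearts without and with CLPP. It was −0.24 ± 0.87 for Gdf15 (95% interval −2.09 to 1.61; edgeR adjusted p = 1.0), and 0% of all genes were called in it (299 of 15255 had an unadjusted edgeR p under 0.05; DESeq2 called 3 and limma voom 1). The comparisons share libraries, so the values of a gene in them are not independent.

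**Figure D2:**
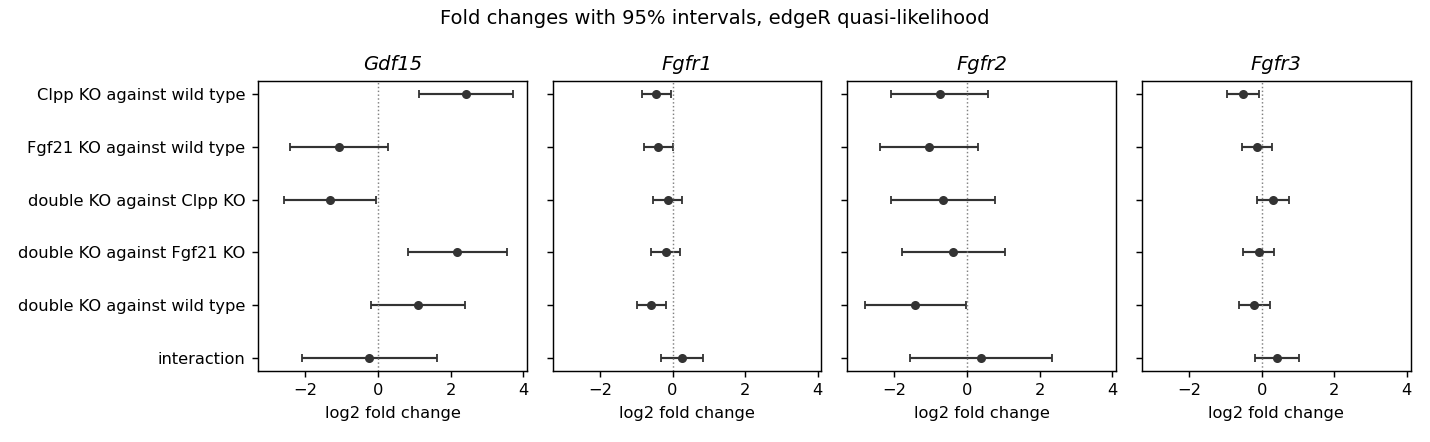
Log2 fold changes of the 4 tested genes in the 6 comparisons, from the edgeR quasi-likelihood model over 16 libraries; points are estimates and bars 95% intervals. For Gdf15 the estimates are 2.42 in Clpp KO against wild type and 2.18 in double KO against Fgf21 KO, while all estimates for Fgfr1 and Fgfr3 lie between −0.58 and 0.43; no adjusted p was under 0.05.

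Over the 16 libraries, the genes whose log2 levels followed Gdf15 most closely were Chac1 (Pearson r = 0.923), which encodes an enzyme that degrades glutathione, Aldh18a1 (0.903), for an enzyme of proline synthesis, and Rubcn (0.899), for a regulator of autophagy. These correlations describe libraries that share genotype and scaling, and the genes were picked on the same libraries, so a shared order of libraries follows from the choice. Chac1 was at 8.61, 13.1, 0.807 and 5.07 CPM in double KO, against 13.9, 9.31, 13.7 and 7.51 CPM in Clpp KO. Double KO replicate 2 was the highest of its group and replicate 3 the lowest. The atrial gene Myl7 was at 247, 1.32, 0.372 and 0.289 CPM in the double KO replicates. A fit with atrial marker levels as a covariate called Gdf15 in Clpp KO against wild type and not in double KO against Clpp KO. The part of atrial tissue in the spread of Gdf15 among double KO libraries was not tested.

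**Figure D3:**
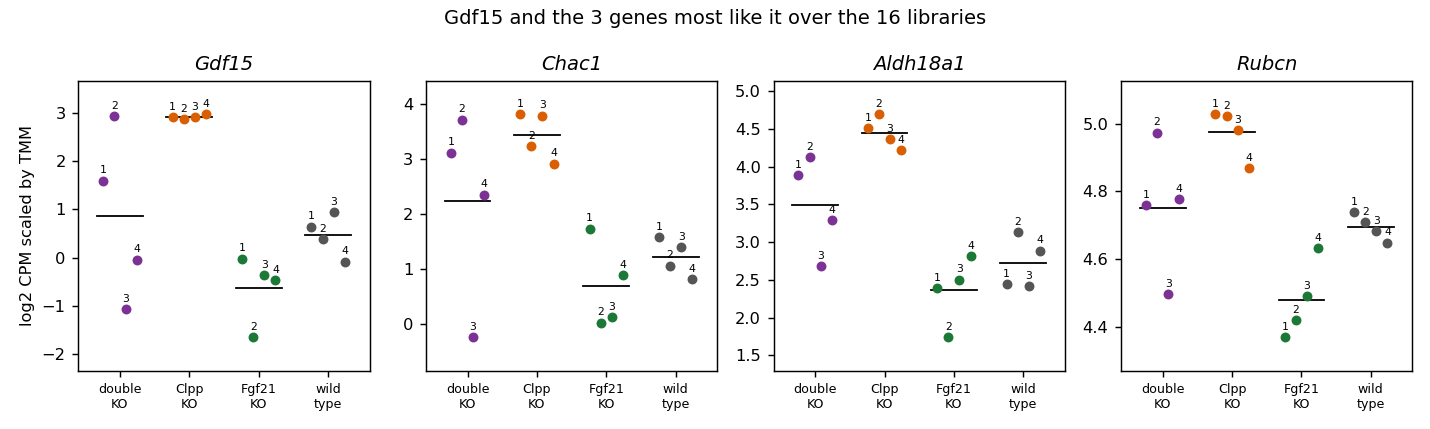
Log2 CPM scaled by TMM of Gdf15, Chac1, Aldh18a1 and Rubcn by library (points with replicate numbers; lines are group means), with a vertical scale of its own for each gene. In double KO each of the 4 genes is highest in replicate 2 and lowest in replicate 3; the 3 genes beside Gdf15 were chosen for their likeness to it over these libraries.

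Among 15 stress response targets that often move with Fgf21 and Gdf15, 8 were higher and 0 lower in Clpp KO against wild type, where 1.08% of all genes were called higher (median log2 fold change 1.42, against −0.04 over all genes). Asns, for asparagine synthetase, rose by 3.10 ± 0.32 (edgeR adjusted p = 7.8e-05), and Mthfd2, for a mitochondrial folate enzyme, by 3.84 ± 0.42 (adjusted p = 0.000213). Slc7a5, for an amino acid transporter, rose by 1.67 ± 0.23 (edgeR adjusted p = 0.000952), and Trib3, for a pseudokinase, by 1.75 ± 0.25 (adjusted p = 0.00126). Chac1 had 2.25 ± 0.58 (edgeR adjusted p = 0.0703), close to Gdf15 in size and likewise not called. For 11 of the 15 every Clpp KO library lay above every wild-type library, as for 7.75% of all genes tested. Ddit4 went the other way, with every Clpp KO library below every wild-type library, as for 5.93%. Every double KO library also lay below wild type for Ddit4, as for 4.48%. Fgf21 and Gdf15 thus stood higher in the same libraries as most of this list. Its members were chosen as moving with these 2 genes and with results of these data known.

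All 15 targets had estimates below 0 in double KO against Clpp KO, with a median of −0.67 against 0.01 over all genes, and 0 were called. For 8 of the 15 every double KO library lay below every Clpp KO library, as for 2.67% of all genes tested. Asns was at 8.56, 10.8, 4.47 and 6.28 CPM in double KO, against 19.0, 23.5, 19.0 and 19.2 CPM in Clpp KO. Replicate 2 was again the highest of the double KO libraries and replicate 3 the lowest, but for Asns, unlike Gdf15, the groups did not overlap. Its log2 fold change was −1.42 ± 0.30 (edgeR adjusted p = 0.234), and that of Phgdh, for the first enzyme of serine synthesis, −1.73 ± 0.43 (adjusted p = 0.579). Phgdh shares 55.9% of its 31-base words with other genes, mainly Gm7901, so its values are uncertain.

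Between the genotypes that both lack Fgf21, 5 of the 15 targets were higher and 0 lower in double KO than in Fgf21 KO, where 0.826% of all genes were called higher (median 0.98). Mthfd2 rose by 3.31 ± 0.42, Asns by 2.34 ± 0.32, Slc7a5 by 1.37 ± 0.23 and Phgdh by 2.48 ± 0.47 (edgeR adjusted p = 0.000613, 0.000846, 0.00406 and 0.0151). In double KO against wild type 4 of 15 were higher and 0 lower, where 1.05% of all genes were called higher (median 0.75). Mthfd2 rose by 2.39 ± 0.40, Asns by 1.68 ± 0.31, Slc7a5 by 1.16 ± 0.23 and Trib3 by 1.10 ± 0.25 (edgeR adjusted p = 0.00656, 0.0123, 0.0170 and 0.0356). In Fgf21 KO against wild type 0 of 15 were called (median −0.28), and in the interaction 0 of 15 (median −0.46).

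Of 19 transcription factors known to act on Fgf21 or Gdf15, Atf5, a relative of ATF4 in the mitochondrial stress response, was the one called. Atf5 was called higher in Clpp KO against wild type, where 1.08% of all genes were. The same held in double KO against Fgf21 KO, where 0.826% of all genes were, and against wild type, where 1.05% were. It was at 106, 111, 55.2 and 72.8 CPM in double KO, 177, 168, 157 and 154 CPM in Clpp KO, 42.4, 29.2, 37.0 and 36.2 CPM in Fgf21 KO and 29.4, 42.4, 30.4 and 54.1 CPM in wild type. Every double KO library lay below every Clpp KO library, as for 2.67% of all genes tested. Each also lay above every Fgf21 KO library, as for 3.88% of all genes, and above every wild-type library, as for 5.36%. The gap to wild type was narrow, 55.2 against 54.1 CPM. Atf5 rose by 2.07 ± 0.23 in Clpp KO against wild type, by 1.26 ± 0.22 in double KO against Fgf21 KO and by 1.15 ± 0.22 in double KO against wild type (edgeR adjusted p = 0.000111, 0.00656 and 0.0147). It had −0.92 ± 0.22 in double KO against Clpp KO (edgeR adjusted p = 0.437). Ddit3, for the stress factor CHOP, had 0.61 ± 0.17 in Clpp KO against wild type (edgeR adjusted p = 0.0785). In double KO against Clpp KO, Fgf21 KO against wild type and the interaction 0 of the 19 were called.

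Klb (ENSMUSG00000029195, chromosome 5, 65348314 to 65384007, plus strand) was near the limit of detection in every library. Counts were 4, 1, 5 and 1 in double KO, 7, 1, 3 and 1 in Clpp KO, 0, 4, 2 and 4 in Fgf21 KO, and 5, 13, 3 and 12 in wild type. Wild-type replicates 2 and 4, which stood apart in their markers, held the highest counts. By library totals Klb was at 0.0592 ± 0.0435 CPM in double KO, 0.0601 ± 0.0531 CPM in Clpp KO, 0.0587 ± 0.0468 CPM in Fgf21 KO and, for wild type, 0.215 ± 0.151 CPM (SD, n = 4 each). Each KO group against wild type gave p = 0.114 in the exact permutation test (adjusted over 5 comparisons p = 0.190). Scaled by TMM, Klb was at 0.0806 ± 0.0614 CPM in double KO, 0.0724 ± 0.0621 CPM in Clpp KO, 0.0489 ± 0.0380 CPM in Fgf21 KO and, for wild type, 0.146 ± 0.0903 CPM, and the exact permutation p against wild type was 0.257, 0.200 and 0.114 in that order of KO groups. The scaling moved the ratio of pooled counts to 0.560 for double KO against wild type, beside 0.303 by library totals, and to 0.533 for Clpp KO against wild type, beside 0.321. A difference between double KO and Clpp KO was not detectable at this depth, with 11 against 12 pooled counts (ratio 0.945, 95% interval 0.378 to 2.34). Adipocyte markers were highest in the same pair of libraries. Leaving out Fabp4, which the endothelial list also holds (a choice made after its values were seen), the other 7 summed to 0.160 to 9.92 CPM in double KO, 0.346 to 14.4 CPM in Clpp KO and 0.958 to 16.4 CPM in Fgf21 KO, against 2.29, 64.7, 2.38 and 205 CPM in wild-type replicates 1 to 4. Of the 8 markers 7 were tested and 0 called against wild type, with median log2 fold changes of −4.14 in double KO, −3.37 in Clpp KO and −3.05 in Fgf21 KO. Their part in the Klb values was not tested. Kl, for the co-receptor of FGF23, was at most 0.157 CPM in any library.

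Fgfr1 (ENSMUSG00000031565, chromosome 8, 25513654 to 25575718, plus strand) overlapped between all groups. It was at 19.9, 20.3, 18.9 and 18.3 CPM in double KO, 18.9, 26.2, 19.5 and 20.4 CPM in Clpp KO, 21.6, 24.3, 18.3 and 24.1 CPM in Fgf21 KO, and 20.0, 40.6, 21.3 and 34.0 CPM in wild type. Wild-type replicates 1 and 3 lay inside the range of the KO libraries, and replicates 2 and 4 above all of them. The log2 fold change was −0.58 ± 0.19 in double KO against wild type (edgeR adjusted p = 0.113), −0.45 ± 0.19 in Clpp KO against wild type (adjusted p = 0.194) and −0.39 ± 0.19 in Fgf21 KO against wild type (adjusted p = 0.538). Without wild-type replicates 2 and 4 these were −0.10, 0.05 and 0.11. In double KO against wild type Fgfr1 was called by edgeR without wild-type replicate 1 (−0.72, adjusted p = 0.0365) or replicate 3 (−0.70, adjusted p = 0.0391), and with these 2 alike libraries summed (−0.71, adjusted p = 0.0403). Its value was −0.13 ± 0.19 in double KO against Clpp KO (95% interval −0.54 to 0.27).

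The genes most like Fgfr1 over the 16 libraries were Mgp (Pearson r = 0.964), for a matrix protein, Gsn (0.961), for gelsolin and one of the fibroblast markers, and Itgb4 (0.961), for an integrin. Mgp was highest in wild-type replicates 2 and 4, at 8.43 and 8.17 on the log2 CPM scale, against 6.06 and 6.04 in replicates 1 and 3. The 9 fibroblast markers summed to 1033 to 1383 CPM in double KO, 1218 to 1727 CPM in Clpp KO, 1209 to 1651 CPM in Fgf21 KO and 1302 to 3469 CPM in wild type. Their part in the Fgfr1 values was not tested.

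**Figure D4:**
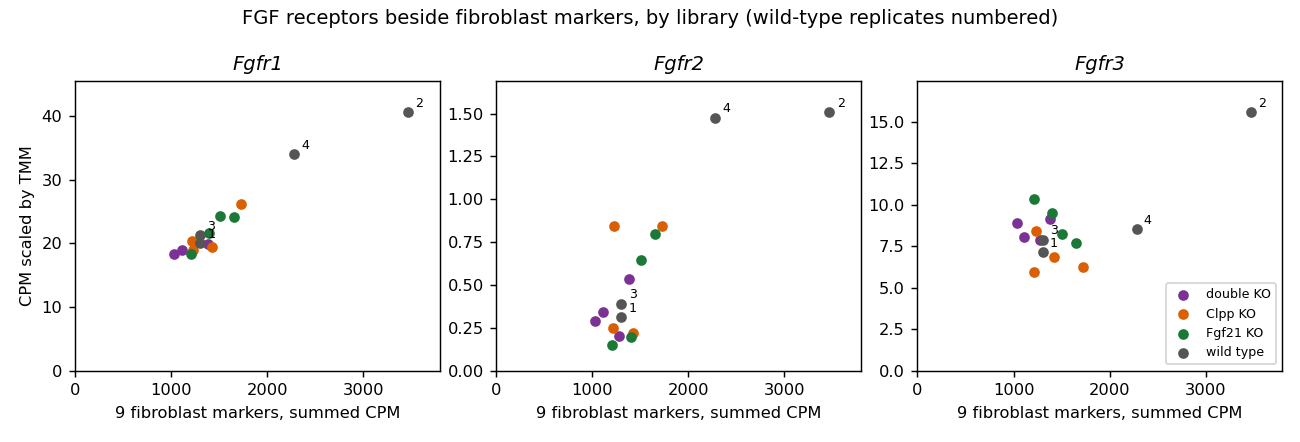
Fgfr1, Fgfr2 and Fgfr3 in CPM scaled by TMM (vertical axes) against the summed CPM of 9 fibroblast markers (horizontal axes), 1 point for each of the 16 libraries, coloured by genotype, with wild-type replicates numbered. Wild-type replicates 2 and 4 lie far to the right, at 3469 and 2282 CPM, with the highest Fgfr1 and Fgfr2, while for Fgfr3 replicate 2 alone is high.

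Fgfr3 (ENSMUSG00000054252, chromosome 5, 33721674 to 33737068, plus strand) was at 9.17, 7.87, 8.07 and 8.88 CPM in double KO, 8.41, 6.22, 6.83 and 5.97 CPM in Clpp KO, 9.53, 8.25, 10.4 and 7.72 CPM in Fgf21 KO, and 7.13, 15.6, 7.90 and 8.52 CPM in wild type. All groups overlapped, and wild-type replicate 2 stood alone above every other library. In Clpp KO against wild type Fgfr3 had a log2 fold change of −0.51 ± 0.20 (edgeR adjusted p = 0.172), which was −0.18 without wild-type replicate 2. The value for double KO against Clpp KO was 0.31 ± 0.20 (95% interval −0.13 to 0.74). In double KO against wild type it had −0.20 ± 0.20, which turned to 0.12 without wild-type replicate 2. Mthfsd (Pearson r = 0.896), Sh3tc1 (0.879) and Tmem52 (0.871) followed it most closely. Of the 31-base words of Fgfr3, 14.9% lie opposite other transcripts, mainly G630022F23Rik, and counting by strand is not stated, so reads of the 2 strands cannot be told apart.

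Fgfr2 (ENSMUSG00000030849, chromosome 7, minus strand) was at 0.533, 0.200, 0.341 and 0.289 CPM in double KO, 0.846, 0.842, 0.219 and 0.251 CPM in Clpp KO, 0.196, 0.647, 0.15 and 0.796 CPM in Fgf21 KO, and 0.311, 1.51, 0.392 and 1.47 CPM in wild type. The groups overlapped throughout, and wild-type replicates 2 and 4 were again the highest. In double KO against wild type Fgfr2 had −1.42 ± 0.66 (edgeR adjusted p = 0.215), which was −0.04 without wild-type replicates 2 and 4. In Clpp KO against wild type it had −0.76 ± 0.63, which turned to 0.63 without them. Smoc1 (Pearson r = 0.903), Flrt2 (0.896) and Ltbp3 (0.893), for matrix or cell surface proteins, followed it most closely. The annotated span of the gene, 130162451 to 133123350, overlaps 69 other genes, and 2.69% of its 31-base words also occur elsewhere, in Ctbp2. Over the 16 libraries the log2 levels of Fgfr1 had a Pearson r of 0.788 with those of Fgfr2 and of 0.458 with those of Fgfr3.

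Fgfr4 (ENSMUSG00000005320, chromosome 13, 55152640 to 55168759, plus strand), for a receptor best known from liver, held 8, 2, 1 and 5 counts in double KO, 7, 7, 5 and 0 in Clpp KO, 6, 4, 7 and 5 in Fgf21 KO, and 10, 32, 9 and 14 in wild type. By library totals it was at 0.0864 ± 0.0666 CPM in double KO, 0.0972 ± 0.0694 CPM in Clpp KO, 0.124 ± 0.0238 CPM in Fgf21 KO and, for wild type, 0.418 ± 0.322 CPM (SD, n = 4 each). No KO library reached the lowest wild-type value, 0.185 CPM in replicate 3. On this scale every library was below every wild-type library for 69.8% of the genes that passed the filter in double KO, 64.1% in Clpp KO and 2.41% in Fgf21 KO, so for double KO and Clpp KO the separation is that of most genes. Each KO group gave p = 0.0286 against wild type in the exact permutation test (adjusted over 5 comparisons p = 0.0476). These calls depend on the scaling. Library totals shift the median log2 fold change of all genes to −0.92 in double KO, −0.79 in Clpp KO and −0.23 in Fgf21 KO, each against wild type. With totals scaled by TMM the adjusted p of the exact permutation test was 0.238 for double KO, 0.238 for Clpp KO and 0.143 for Fgf21 KO. For Fgf21 KO the unadjusted exact permutation p stayed at 0.0286 with that scaling. Every Fgf21 KO library was still below every wild-type library, as for 1.57% of all genes tested. By library totals without wild-type replicate 2, the adjusted exact permutation p was 0.0952, 0.0714 and 0.0714 in the same order, with 3 against 4 libraries. The 9 hepatocyte markers summed to 0.417 to 160 CPM in double KO, 1.41 to 57.8 CPM in Clpp KO, 3.07 to 11 CPM in Fgf21 KO and 13.0 to 50.8 CPM in wild type, and their part was not tested.

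Genes were compared per kilobase of exon, with the exons of all annotated transcripts merged. That gave 9875 bases over 19 transcripts for Fgfr1, 1852 over 2 for Gdf15 and 951 over 1 for Fgf21. A merged length can exceed that of any single transcript, so ranks between genes are approximate. On this scale Fgfr1 led the receptors in every library. It averaged 1.96 ± 0.0931 CPM per kb in double KO, 2.15 ± 0.339 in Clpp KO, 2.24 ± 0.282 in Fgf21 KO and, for wild type, 2.94 ± 1.01 (SD, n = 4 each). Fgfr3 averaged 1.19 ± 0.0878 CPM per kb in double KO, 0.958 ± 0.153 in Clpp KO, 1.25 ± 0.168 in Fgf21 KO and 1.37 ± 0.546 in wild type. Fgfr2 and Fgfr4 stayed at or below 0.146 CPM per kb and Klb at or below 0.0540, and the order of these 3 genes changed between libraries. Fgf21 reached 0.461 ± 0.228 CPM per kb in Clpp KO, above Fgfr2, Fgfr4 and Klb in all 4 libraries, and 0.0272 ± 0.0425 in wild type. Gdf15 averaged 1.61 ± 1.77 CPM per kb in double KO, 4.05 ± 0.122 in Clpp KO, 0.355 ± 0.151 in Fgf21 KO and 0.753 ± 0.225 in wild type. It ranked above every receptor in the 4 Clpp KO libraries and in double KO replicate 2, and below Fgfr1 and Fgfr3 in all wild-type and Fgf21 KO libraries.

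Of the summed receptor level per kb, Fgfr1 held 61.1 ± 2.74% in double KO, 67.2 ± 5.79% in Clpp KO, 62.6 ± 5.56% in Fgf21 KO and, for wild type, 65.8 ± 3.57% (SD, n = 4 each). Fgfr3 held 36.9 ± 1.98% in double KO, 30.2 ± 5.37% in Clpp KO, 35.3 ± 6.15% in Fgf21 KO and 30.7 ± 4.15% in wild type. The mix of receptors was thus led by the same pair in every genotype. Fgfr2 and Fgfr4 each held at most 2.94% in any library.

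**Figure D5:**
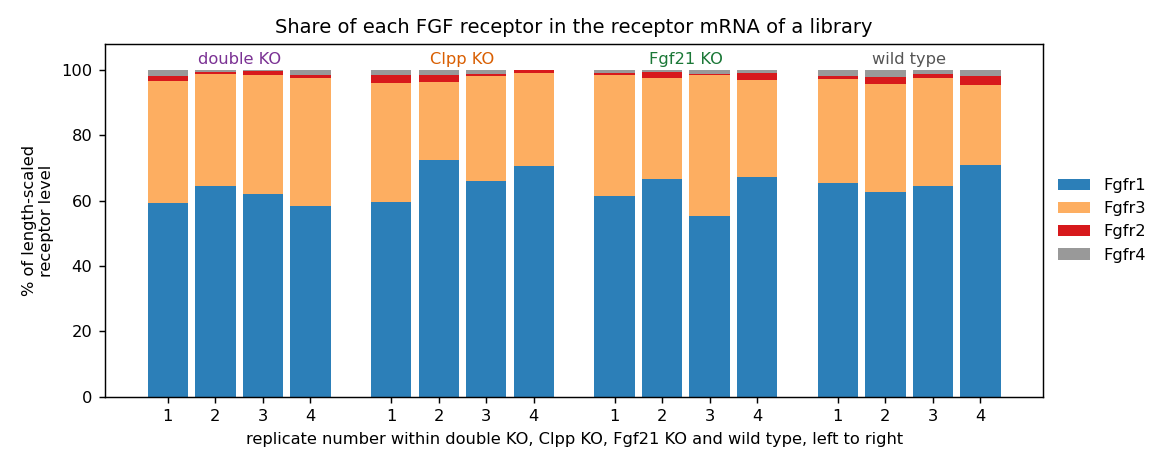
Share of each FGF receptor in the summed receptor level per kilobase of exon, in percent, for each library (stacked bars), grouped by genotype with replicate numbers. Fgfr1 holds 55.3% to 72.6% and Fgfr3 23.8% to 43.2%, and Fgfr2 and Fgfr4 are thin layers.

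Of 17 other FGF ligand genes, 8 were tested and 0 were called in any comparison. Fgf1, for a ligand of all FGF receptors, was at 110, 125, 133 and 141 CPM in double KO, against 100, 61.4, 104 and 79.2 CPM in wild type (log2 fold change 0.56 ± 0.17, edgeR adjusted p = 0.0952). Wild-type replicates 2 and 4 were the lowest. Fgf2, for another heparin-binding ligand, had −0.44 ± 0.16 there (edgeR adjusted p = 0.131). Of 10 other co-receptors and cofactors 7 were tested and 0 called in any comparison; Sdc1, for a heparan sulfate proteoglycan, had −0.75 ± 0.24 in Clpp KO against wild type (edgeR adjusted p = 0.117). All 21 receptor-proximal signalling genes were tested and 0 called in any comparison, with medians between −0.05 and 0.12. Among 3 proteases on the FGF21 cleavage list 0 were called in any comparison, and Fap, for the enzyme that inactivates FGF21 in humans, had −0.09 ± 0.17 in double KO against wild type.

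Of 20 feedback and target genes of ERK, the kinase downstream of FGF receptors, 17 were tested. In Clpp KO against wild type 2 were higher and 0 lower, where 1.08% of all genes were called higher, with a list median of −0.03 beside −0.04 over all genes. Dusp4, for a phosphatase that acts on ERK, was at 4.30, 6.89, 3.55 and 5.0 CPM in Clpp KO, against 1.28, 1.13, 1.16 and 0.860 CPM in wild type, and rose by 2.15 ± 0.44 (edgeR adjusted p = 0.0213). Etv5, for a transcription factor induced by FGF signals, rose by 0.88 ± 0.19 (edgeR adjusted p = 0.0273); 30.3% of its 31-base words are shared, mainly with Gm4798. In double KO Dusp4 was at 1.71, 3.6, 4.28 and 0.673 CPM, with replicate 3 highest, and its log2 fold change against Clpp KO was −0.94 ± 0.42 (edgeR adjusted p = 0.994). Double KO replicate 3, lowest for Gdf15, was thus not low for Dusp4. The list had 0 genes called in the other 5 comparisons; the early genes Egr1 and Fos had −1.38 ± 0.39 and −1.90 ± 0.54 in double KO against wild type (edgeR adjusted p = 0.0852 and 0.0875).

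Gfral, for the GDF15 receptor, had 0 counts in all 16 libraries. Of 12 genes for that receptor, for processing enzymes and for relatives of GDF15, 11 were tested and 0 called in any comparison. Pcsk5, for a proprotein convertase, had −0.94 ± 0.24 in double KO against wild type (edgeR adjusted p = 0.0639), and Tgfb1 had −0.41 ± 0.14 in Clpp KO against wild type (adjusted p = 0.131). Of 23 other secreted factors of heart and muscle, 22 were tested and 0 called in any comparison. Nppb, for a natriuretic peptide, had −1.06 ± 0.46 in Clpp KO against wild type (edgeR adjusted p = 0.204), where wild-type replicate 4 stood at 350 CPM and the other 3 wild-type libraries at 87.3 to 89.8 CPM.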

How the data were processed

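RNA-seq counts per gene were analysed for 16 mouse heart libraries. The deposited file holds estimated reads as whole-number counts per gene; per the submitters' processing notes, fastp 0.21.0, kallisto 0.46.1, edgeR 3.32.1 and DESeq2 1.30.1 on R 4.0.3 were used with GRCm38.p6, and counting by strand is not stated. Groups were taken from the labels. With R 4.3.3 and edgeR 4.0.16, genes were filtered by filterByExpr (count minimum 10, total minimum 15), scaled by TMM and tested by the robust quasi-likelihood test in one model over the 4 genotypes, two-sided, with Benjamini-Hochberg adjustment over 15255 genes and a threshold of 0.05. Genes under the filter (Fgf21, Klb, Fgfr4) were tested by exact permutation of CPM. Intervals of ratios are exact, at 95%, and cover counting error only. DESeq2 1.42.0 and limma 3.58.1 were alternatives. Levels per kb use merged exons of GENCODE M21. Shared 31-base words are counted over annotated transcripts. The scripts were tested on simulated data.

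Named genes are the 7 studied, up to 4 called genes of each list by smallest p (or genes among the 2 smallest where none was called), and the 3 most correlated with each tested gene. Clpp, Myl7, Fabp4, Kl, Gfral, Ddit4 and, where they stand beside another result, Chac1 and Fap were chosen after their values were seen. The genes studied and all lists were chosen with earlier results of these data known. Of the marker lists, 1 of 8 tested endothelial genes was lower in Clpp KO against wild type, where 0.551% of all genes were called lower. In double KO against wild type 1 of 5 tested skeletal muscle genes was higher, where 1.05% of all genes were called higher. The other marker lists had 0 genes called in any comparison.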

Additional observations from a re-analysis of the deposited data

Results flagged for a closer look

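Fgfr3 in wild-type replicate 2 stood at 15.6 CPM scaled by TMM, far above the other 3 wild-type libraries, of which the nearest was at 8.52 CPM. Its gap divided by the range of the group was 0.835, over the critical value of Dixon's test for 4 libraries. It was the 1 case among 26 sets of 4 libraries examined, where chance gives about 1 in 20. In the same library the fibroblast markers summed to 3469 CPM and genes of the Y chromosome to 4.19 CPM by library totals alone, each the extreme of the 16 libraries. Their part in the Fgfr3 value was not tested.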

How the results depend on the processing

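The count of genes called by the model across all genes, which tested 4 of the 7 and called 0 in all 6 comparisons, stayed at 0 in every alternative for the interaction, for double KO against Clpp KO and for Fgf21 KO against wild type. Fgfr4, tested apart from it, is given below. With library totals alone the count was 4 for Clpp KO and 3 for double KO, each against wild type, and likewise 3 in double KO against Fgf21 KO. In Clpp KO against wild type it was 1 (Gdf15) with the DESeq2 test, limma voom with quality weights, the atrial covariate and the 2 groups alone. With wild-type replicates 1 and 3, the most alike pair, summed, it was 1 (Fgf21, past the filter only through Clpp KO libraries). In double KO it was 1 against Fgf21 KO with the DESeq2 test (Gdf15) and 1 against wild type with that sum (Fgfr1). Leaving out each library in turn gave 0 to 2 for Clpp KO and 0 to 1 for double KO, each against wild type, and also 0 to 1 in double KO against Fgf21 KO. The causes were not tested.

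Log2 fold changes turned direction as follows, none of them past the threshold. With limma voom, Fgfr2 had 0.13 in Clpp KO against wild type and 0.50 for double KO against Fgf21 KO, and Fgfr3 had 0.18 in double KO against wild type, 0.34 in Fgf21 KO against wild type and −0.050 in the interaction. With the atrial covariate, double KO against Clpp KO gave 0.13 for Fgfr1 and 0.17 for Fgfr2, and double KO against Fgf21 KO gave 0.11 for Fgfr1, 0.65 for Fgfr2 and 0.11 for Fgfr3. Without wild-type replicates 2 and 4, Clpp KO against wild type gave 0.045 for Fgfr1 and 0.63 for Fgfr2, Fgf21 KO against wild type 0.11 for Fgfr1, 0.34 for Fgfr2 and 0.27 for Fgfr3, double KO against wild type 0.17 for Fgfr3, and the interaction 0.031 for Gdf15, −0.25 for Fgfr1 and −1.01 for Fgfr2. Leaving out each library in turn, Fgfr3 ran from −0.33 to 0.12 in double KO against wild type and from −0.25 to 0.21 in Fgf21 KO against wild type, Fgfr2 from −0.68 to 0.055 in double KO against Fgf21 KO, and Gdf15 from −1.27 to 0.12 in the interaction.

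The Fgfr4 difference from wild type, in CPM, was no longer called with totals scaled by TMM (−0.161 in double KO, −0.161 in Clpp KO, −0.172 in Fgf21 KO) or without wild-type replicates 2 and 4 (−0.116, −0.105 and −0.0777). Leaving out 1 library gave −0.409 to −0.177 in double KO, −0.399 to −0.166 for Clpp KO and, for Fgf21 KO, −0.371 to −0.139. With 3 against 4 libraries the exact permutation test has fewer possible splits.

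With the replicate block, 0 of the genes were called in any comparison, and Gdf15 had 2.45 in Clpp KO against wild type (edgeR adjusted p = 0.112). No pairing by replicate number is stated. Deviations from group means correlated between −0.228 and 0.364 over 24 pairs with the same number (median −0.0093). Over 72 pairs with other numbers they correlated between −0.498 and 0.496 (median −0.0055). Large differences in tissue content can mask a pairing in such values, so they cannot exclude one. Over all genes, edgeR, DESeq2 and limma voom called 249, 841 and 2815 genes in Clpp KO against wild type, then 233, 966 and 964 for double KO against wild type, 136, 209 and 370 for double KO against Fgf21 KO, then 9, 35 and 41 for double KO against Clpp KO, and 7, 34 and 111 in Fgf21 KO against wild type. Fgfr2 has no value under a count minimum of 50, and the interaction was not run on the groups of a comparison alone. Low counts limit Fgf21, Klb and Fgfr4.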
